A study of Mus musculus with 16 samples.

Results

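The Hox genes are 38 listed members of the 4 mouse Hox clusters, and the data describe the H3K4me3 regions at them in adult hippocampus. H3K4me3, trimethylation of lysine 4 of histone H3, is a chromatin mark of active and poised promoters, and it was measured by chromatin immunoprecipitation and sequencing (ChIP-seq). A region was taken as a member when it lay inside a listed gene or within 2 kb of either end of it in mm10. By this rule 10 of the 35996 regions in the deposited tables were Hox regions, and they lay at 11 of the 38 genes.

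The tissue came from adult male mice 2 to 4 months old, and each library was made from the pooled hippocampi of 2 mice. The H3K4me3 libraries were 12, in 6 groups of 2. KO mice, which carry a knockout of Kdm5c, and their wild-type (WT) littermates were on a mixed C57/129 background, and each genotype was studied under standard conditions and after 1 h in an unfamiliar box with tubing and toys (novelty). The other cohort was on a pure C57BL/6J background and comprised the Kdm5c mutant that the labels call ifKO and its littermate controls, written ifWT here. The sources used here do not give how the KO and ifKO alleles were made. Kdm5c is an X-linked gene for a demethylase that removes methyl groups from lysine 4 of histone H3, and the study asked where the mark differs in its absence. The title of 1 ifWT library reads H3K3me3, while its antibody field gives H3K4me3.

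Hox genes encode homeodomain transcription factors that set position along the body axis. Each cluster runs in the order in which its genes are expressed from head to tail, and in the nervous system the anterior limit of Hox expression lies in the hindbrain, so the forebrain, hippocampus included, normally lacks it. In cells that do not express them, Hox clusters are covered by Polycomb repressive complexes and their mark on lysine 27 of histone H3, and CpG-rich Hox promoters can carry a small amount of H3K4me3 beside it. H3K4me3 is laid down at Hox promoters mainly by the Trithorax-related enzymes Kmt2a and Kmt2b, which bind unmethylated CpG-rich DNA.

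Promoter sequence is printed for the 4 genes whose RefSeq start lay inside a region, Hoxa5, Hoxa13, Hoxd1 and Hoxd9, and for Hoxb4, a gene of the cluster that had no region. Each line is the 250 bases before the start in GRCm38.p6, 5′ to 3′ on the strand of the gene, and capitals mark each CG dinucleotide. The windows are chr6:52204588-52204837 on the minus strand for Hoxa5, chr6:52260881-52261130 on the minus strand for Hoxa13, chr2:74762730-74762979 on the plus strand for Hoxd1, chr2:74697513-74697762 on the plus strand for Hoxd9 and chr11:96318017-96318266 on the plus strand for Hoxb4.
Hoxa5: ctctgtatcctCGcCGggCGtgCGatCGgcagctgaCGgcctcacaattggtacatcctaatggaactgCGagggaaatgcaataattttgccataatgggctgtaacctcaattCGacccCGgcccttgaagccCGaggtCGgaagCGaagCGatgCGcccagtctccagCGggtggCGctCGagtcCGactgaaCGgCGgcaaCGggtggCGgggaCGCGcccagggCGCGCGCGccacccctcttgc
Hoxa13: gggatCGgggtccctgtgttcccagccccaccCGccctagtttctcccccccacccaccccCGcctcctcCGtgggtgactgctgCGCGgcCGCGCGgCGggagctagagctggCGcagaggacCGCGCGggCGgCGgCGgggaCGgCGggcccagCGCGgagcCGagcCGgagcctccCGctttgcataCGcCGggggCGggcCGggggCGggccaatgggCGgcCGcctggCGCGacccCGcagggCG
Hoxd1: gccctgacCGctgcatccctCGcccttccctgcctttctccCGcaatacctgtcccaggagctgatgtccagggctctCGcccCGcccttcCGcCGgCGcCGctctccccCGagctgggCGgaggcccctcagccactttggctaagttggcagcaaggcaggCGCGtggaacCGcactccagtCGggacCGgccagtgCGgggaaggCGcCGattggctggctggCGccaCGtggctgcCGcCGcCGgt
Hoxd9: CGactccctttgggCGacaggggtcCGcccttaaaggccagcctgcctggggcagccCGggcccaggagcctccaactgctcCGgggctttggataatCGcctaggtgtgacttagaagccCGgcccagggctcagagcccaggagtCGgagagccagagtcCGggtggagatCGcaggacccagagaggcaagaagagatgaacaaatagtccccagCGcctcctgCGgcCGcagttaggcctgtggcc
Hoxb4: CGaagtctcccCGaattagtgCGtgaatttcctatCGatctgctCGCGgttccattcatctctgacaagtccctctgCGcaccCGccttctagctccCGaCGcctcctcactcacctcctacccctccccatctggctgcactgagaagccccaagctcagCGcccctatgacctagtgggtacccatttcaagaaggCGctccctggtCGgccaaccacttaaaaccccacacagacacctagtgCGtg

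CG, which reads the same on both strands, occurred 28 times in the Hoxa5 window, 35 times in Hoxa13, 24 times in Hoxd1, 13 times in Hoxd9 and 14 times in Hoxb4. Across all 32851 promoters of the RefSeq table the median was 6, 92.1% held at least 1 CG, and 31.5% held 13 or more. RefSeq gave 24 promoters for 22 of the 38 Hox genes, with a median of 12.5 CG, and 50% of them held 13 or more. The 9 promoters of Hox genes with a region had a median of 24 CG, against 10 for the 15 promoters of Hox genes without one. Only 4 of the 9 had their start inside a region, so this is not a split of marked and unmarked promoters. The 15 came from 13 genes. Density did not separate the printed genes by whether they had a region, since Hoxb4 without a region held 1 CG more than Hoxd9 with one. These counts describe the windows and were not tested.

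The 4 clusters differed in how many of their genes had a region. In Hoxa, on chromosome 6, 5 regions lay at 6 of 10 genes: Hoxa3, Hoxa4, Hoxa5, Hoxa6, Hoxa9 and Hoxa13. In Hoxb, on chromosome 11, none of 10 genes had a region: Hoxb1, Hoxb2, Hoxb3, Hoxb4, Hoxb5, Hoxb6, Hoxb7, Hoxb8, Hoxb9 and Hoxb13 lay 69423 to 162480 bp from the nearest one. In Hoxc, on chromosome 15, 1 region lay at 1 of 9 genes, Hoxc6, and there was none at Hoxc4, Hoxc5, Hoxc8, Hoxc9, Hoxc10, Hoxc11, Hoxc12 or Hoxc13. In Hoxd, on chromosome 2, 4 regions lay at 4 of 9 genes, Hoxd1, Hoxd8, Hoxd9 and Hoxd13, and there was none at Hoxd3, Hoxd4, Hoxd10, Hoxd11 or Hoxd12. The remaining Hoxa genes without a region were Hoxa2, Hoxa7, Hoxa10 and Hoxa11. Just inside the distance limit was Hoxa9, with a region 1056 bp away, and just outside it were Hoxd10 at 2549 bp and Hoxa7 at 2588 bp. The share of Hox genes with a region was 28.9%, against 72.5% of the 21887 annotated protein-coding genes and 52 of 60 homeobox and developmental genes listed from outside the clusters. The deposited tables list counts for called regions only, so no level can be given for the 27 Hox genes without one.

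**Figure D1:**
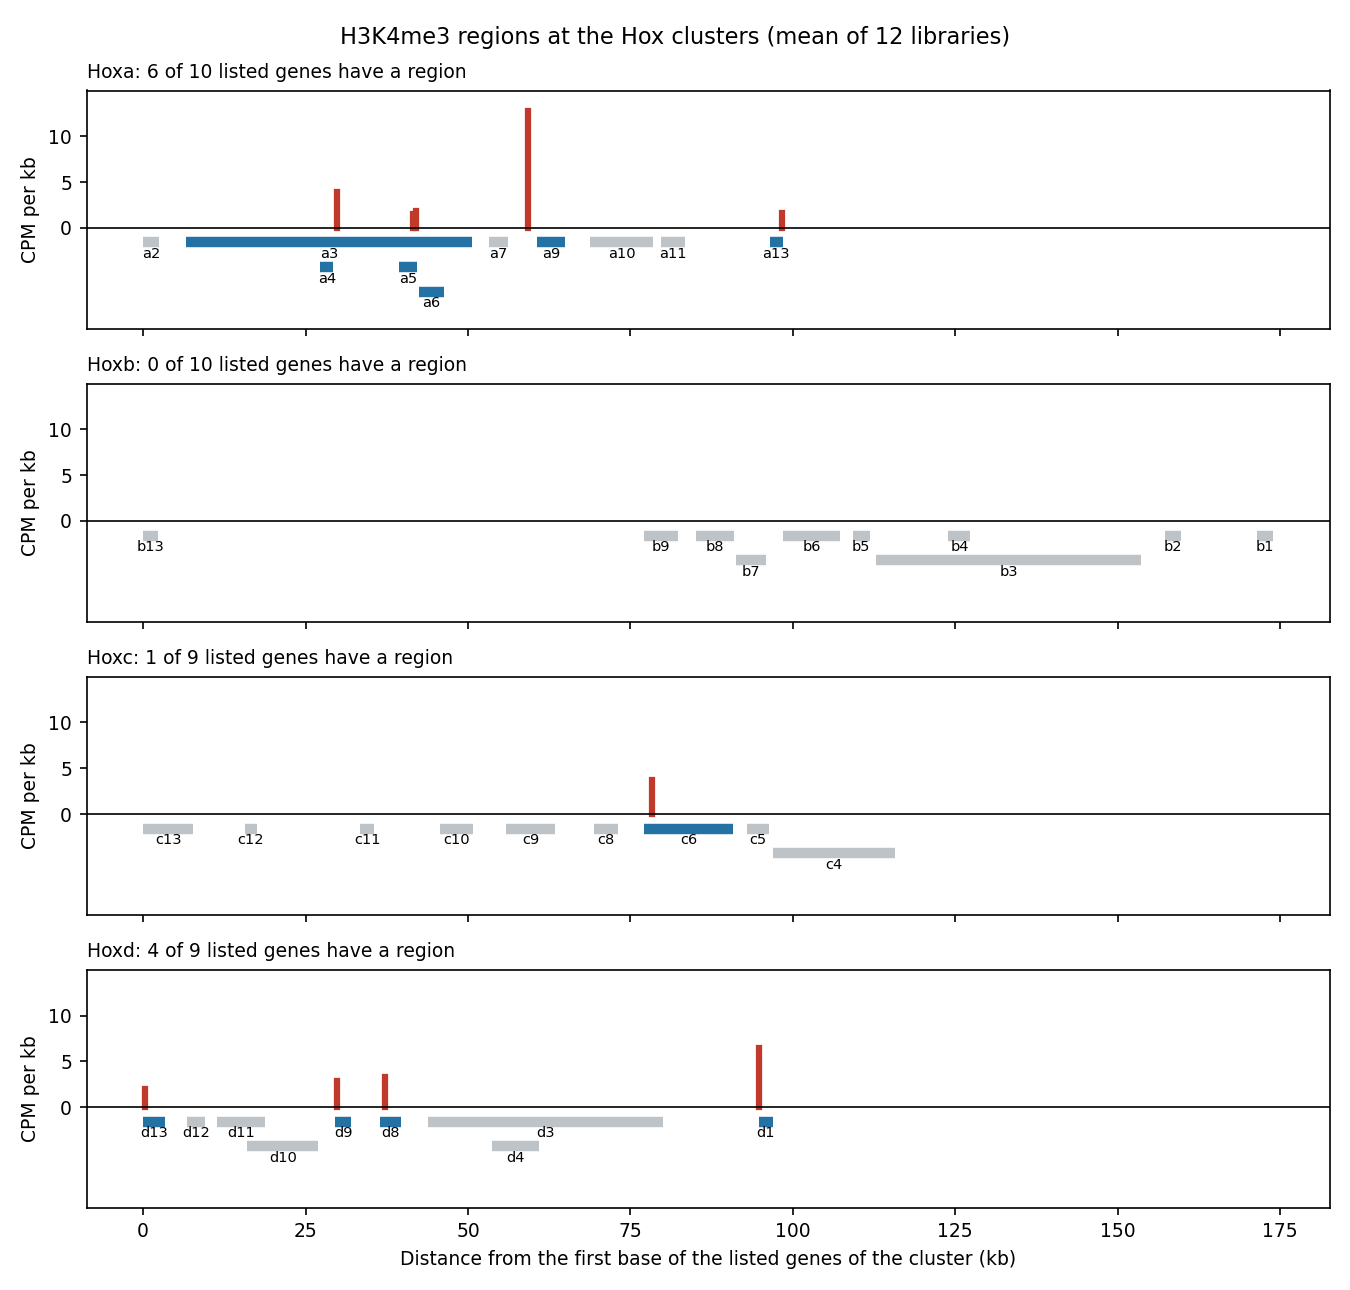
Positions of the 10 Hox regions (red bars) along the 4 clusters, with the listed genes below them (blue with a region, grey without; letters are the cluster and number of the gene). The x axis is the distance in kb from the first base of the listed genes, the height of a bar is the mean H3K4me3 level of 12 libraries in CPM per kb, CPM being the count scaled to library size, and Hoxb, with 0 of 10 genes marked, is empty, while the Hoxa9 bar is the tallest at 12.8.

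Several regions were shared between genes or lay away from a start. The Hoxa4 region (chr6:52191896-52192458) lay 193 bp outside Hoxa4 at its higher coordinate, inside the long Hoxa3 gene annotated across it. That is the 5′ side if Hoxa4 is read from the minus strand, as are the Hoxa genes in the RefSeq promoter table, which holds no Hoxa4 entry. Hoxa5, which in mice is needed for the airway and the phrenic motor neurons, had 2 regions, region 1 (chr6:52203712-52204087) inside the gene and region 2 (chr6:52204271-52204625) over its start. Both also lay inside Hoxa3 and within 2 kb of Hoxa6, so 3 of the 11 genes counted as having a region shared these 2. The Hoxa9 region (chr6:52221161-52222041) lay between Hoxa7 and Hoxa9, downstream of Hoxa9 and 5329 bp from its start. It overlapped neither gene and was nearer the start of Hoxa7, 2588 bp away, so the mark there cannot be given to Hoxa9 rather than Hoxa7. The Hoxa13 region (chr6:52260584-52260979) and, in Hoxd, the Hoxd9 (chr2:74697655-74698566) and Hoxd1 (chr2:74762569-74763566) regions covered the start. The Hoxd13 region (chr2:74668327-74668656) began 102 bp and the Hoxd8 region (chr2:74704989-74705952) 374 bp downstream of the start, both inside the gene. The Hoxc6 region (chr15:102998976-103000044) lay inside Hoxc6. No other region of the tables lay within the spans of the listed genes, which are 98.5 kb for Hoxa, 173.9 kb for Hoxb, 115.7 kb for Hoxc and 96.9 kb for Hoxd. Of 18 noncoding RNA and microRNA genes listed from the clusters, 4 had a region within 2 kb of an end. Among these, Haglr shared the Hoxd1 region and Hottip the Hoxa13 region, so the mark there cannot be given to one gene of the pair.

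Hox regions were weak and narrow beside the rest of the table. Levels are given in CPM, the count scaled to library size with TMM factors. The mean level over 12 libraries had a median of 2.40 CPM over the 10 Hox regions, against 6.46 CPM over the 35955 regions tested and 33.0 CPM over the 19837 regions within 2 kb of a gene end. The median width was 721 bp for Hox regions, 1021 bp for all regions and 1391 bp for gene-end regions. Of the 10, 9 lay below the median level of all regions and 10 below that of gene-end regions. The exception was the Hoxa9 region at 11.2 CPM, the 56.7th percentile of all regions. The Hoxd1 region followed at 6.43 CPM, then Hoxc6 at 3.92 CPM, Hoxd8 at 3.12 CPM, Hoxd9 at 2.60 CPM and Hoxa4 at 2.204 CPM. Hoxd13, Hoxa13 and both Hoxa5 regions formed the low end at 0.571 to 0.649 CPM, between the 5.41st and 7.65th percentile. In single libraries these 4 held 7 to 31 counts and the other 6 held 36 to 348, so the 4 weakest are measured with much larger counting error. A count of 3, the limit that a count of 0 allows, corresponds to 0.0953 to 0.168 CPM over the 12 libraries.

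**Figure D2:**
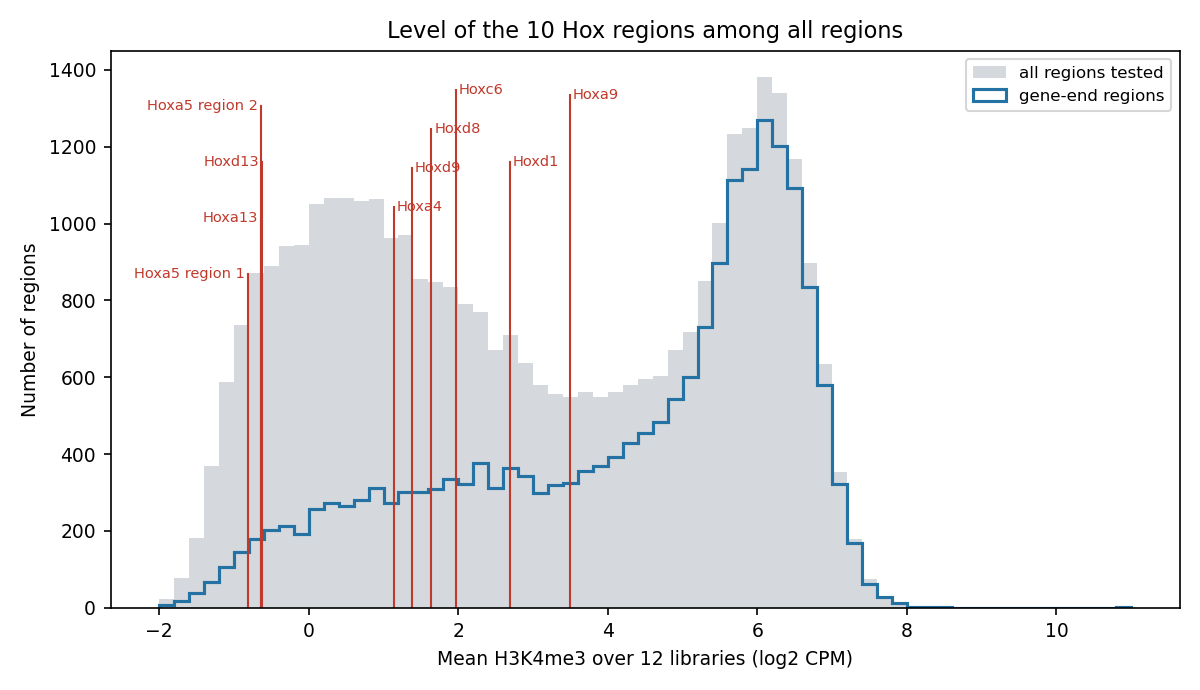
Distribution of the mean H3K4me3 level (log2 CPM, 12 libraries) of the 35955 regions tested (grey) and of gene-end regions (blue line), with the 10 Hox regions as red lines whose heights carry no value. The 4 weakest Hox regions sit at the lower edge and 9 of 10 lie below the median of all regions, 6.46 CPM.

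Per kb of region the order of the levels was Hoxa9, Hoxd1, Hoxa4, Hoxc6, Hoxd8, Hoxd9, Hoxd13, Hoxa5 region 2, Hoxa13 and Hoxa5 region 1. The Hoxa9 region had 12.8 ± 2.22 CPM per kb and the Hoxd1 region 6.45 ± 0.945 CPM per kb (SD, n = 12 libraries of all groups), and their ranges did not overlap. Hoxd1 was above Hoxa4, at 3.92 ± 0.706 CPM per kb, in 12 of 12 libraries, although their ranges over libraries overlapped. From Hoxa4 to Hoxd9 the neighbours in this order could not be told apart: Hoxa4 was above Hoxc6 in 7 of 12 libraries, Hoxc6 above Hoxd8 in 7 and Hoxd8 above Hoxd9 in 9. Hoxd9 was above Hoxd13 in 11 of 12 libraries, and the last 4 regions were in no stable order, Hoxa5 region 2 above Hoxa13 in 5 of 12. In Hoxd the gene at one end of the cluster, Hoxd13, was the lowest and the gene at the other end, Hoxd1, the highest, with Hoxd8 and Hoxd9 between them and not told apart. In Hoxa the highest was the region labelled Hoxa9, between Hoxa7 and Hoxa9 in the middle of the cluster and at the start of neither. The regions of Hoxa5 and Hoxa13 were low without a stable order.

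In Hoxa, the Hoxa9 region, downstream of a gene known for its part in blood stem cells and posterior patterning, had 10.5 and 10.2 CPM in standard KO libraries, against 8.36 and 11.1 CPM in standard WT libraries. In the novelty groups it had 11.1 and 9.81 CPM in KO libraries, against 8.49 and 11.4 CPM in WT libraries, and in the other cohort 14.1 and 12.7 CPM in ifKO and 12.9 and 14.3 CPM in ifWT. All 4 libraries of the C57BL/6J cohort were above all 8 of the mixed-background cohort, an order whose share among all regions was not counted. The Hoxa4 region, at a gene of the anterior trunk and posterior hindbrain, had 2.71 and 3.05 CPM in standard KO libraries, against 1.80 and 1.74 CPM in standard WT libraries. In the novelty groups it had 2.19 and 2.60 CPM in KO libraries, against 2.03 and 1.95 CPM in WT libraries, and in the other cohort 2.01 and 2.19 CPM in ifKO and 1.91 and 2.28 CPM in ifWT. KO libraries were thus above WT libraries in both conditions, while ifKO and ifWT overlapped. The share of all regions with that order after novelty was not counted. The 2 Hoxa5 regions and Hoxa13, a gene of digits and the hindgut, ranged over all libraries over 0.313 to 1.18 CPM for Hoxa5 region 1, 0.313 to 1.23 CPM for region 2 and 0.222 to 1.08 CPM for Hoxa13. Hoxa5 region 1, the weakest Hox region, had 9 and 10 counts in KO and 10 and 13 counts in WT under standard conditions, 25 and 9 counts in KO and 20 and 9 counts in WT after novelty, and 23 and 10 counts in ifKO and 9 and 13 counts in ifWT. Its highest libraries came from 3 different groups, each of which also had a low library.

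In Hoxc, the region of Hoxc6, a gene of the brachial and thoracic trunk and its motor neurons, had 2.88 and 4.11 CPM in standard KO libraries, against 3.06 and 2.68 CPM in standard WT libraries. In the novelty groups it had 3.69 and 3.66 CPM in KO libraries, against 3.93 and 3.06 CPM in WT libraries, and in the other cohort 5.40 and 4.998 CPM in ifKO and 5.05 and 4.51 CPM in ifWT. As for Hoxa9, the 4 libraries of the C57BL/6J cohort were the highest of the 12, again with no share of all regions to set beside it.

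In Hoxd, the region of Hoxd1, a gene that in mice shapes the wiring of pain-sensing neurons, had 6.94 and 6.68 CPM in standard KO libraries, against 5.39 and 5.09 CPM in standard WT libraries. In the novelty groups it had 6.52 and 7.49 CPM in KO libraries, against 6.50 and 4.66 CPM in WT libraries, and in the other cohort 6.48 and 6.74 CPM in ifKO and 6.86 and 7.86 CPM in ifWT. KO libraries were above WT libraries in both conditions (after novelty only just, with 6.52 CPM in the lower KO library and 6.50 CPM in the higher WT library). The ifKO libraries were below the ifWT libraries. The shares of all regions with that order, or with KO above WT after novelty, were not counted. The region of Hoxd8, a trunk gene, had 3.16 and 4.26 CPM in standard KO libraries, against 2.79 and 2.502 CPM in standard WT libraries. In the novelty groups it had 2.64 and 2.97 CPM in KO libraries, against 4.14 and 2.68 CPM in WT libraries, so the order of KO and WT was not the same in the 2 conditions. Hoxd13, the gene of digit formation, had 0.493 and 0.661 CPM in standard KO libraries, against 0.314 and 0.402 CPM in standard WT libraries. In the novelty groups it had 0.509 and 0.570 CPM in KO libraries, against 0.844 and 0.313 CPM in WT libraries, and in the other cohort 0.823 and 0.955 CPM in ifKO and 0.784 and 1.12 CPM in ifWT. The Hoxd9 region, at a gene of the posterior trunk and limb, was the steadiest of the 10 between groups, with group means of 2.46 to 2.86 CPM.

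**Figure D3:**
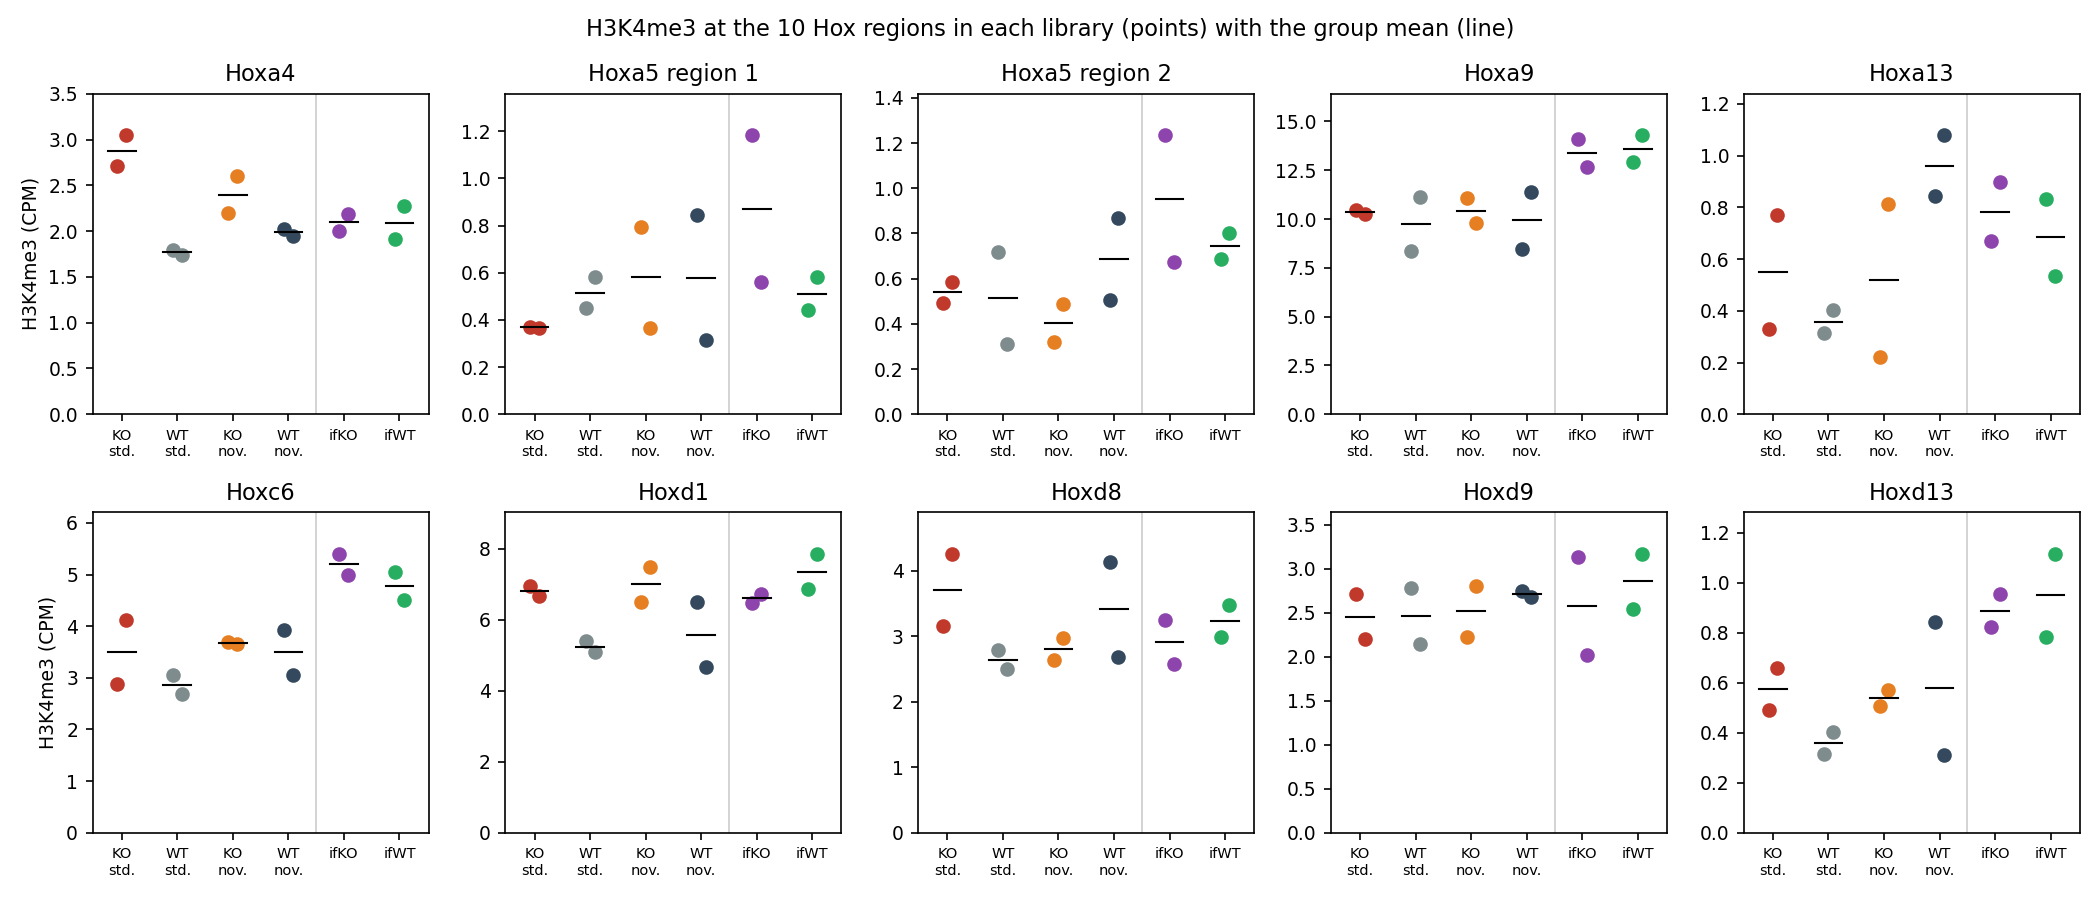
H3K4me3 level (CPM) of each Hox region in each of the 12 libraries (points) with the mean of the group (line), from left to right KO and WT under standard conditions (std.), KO and WT after novelty (nov.), ifKO and ifWT; each panel has its own axis from 0. WT under standard conditions has the lowest group mean in 7 of 10 regions, and at Hoxa9 and Hoxc6 the ifKO and ifWT libraries lie above all others. The shares of all regions with these patterns were not counted.

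Summed over a cluster, the Hoxa regions had 14.7 ± 0.450 CPM in standard KO libraries, against 12.9 ± 1.79 CPM in standard WT libraries, 14.3 ± 0.358 CPM in novelty KO libraries, against 14.1 ± 2.04 CPM in novelty WT libraries, and 18.1 ± 1.53 CPM in ifKO and 17.6 ± 1.19 CPM in ifWT (SD, n = 2 each). The Hoxd regions had 13.6 ± 0.349 CPM in standard KO libraries, against 10.7 ± 0.800 CPM in standard WT libraries, 12.9 ± 1.38 CPM in novelty KO libraries, against 12.3 ± 2.75 CPM in novelty WT libraries, and 12.99 ± 0.977 CPM in ifKO and 14.4 ± 1.74 CPM in ifWT. Hoxa9 alone made up most of the Hoxa sum and Hoxd1 about as much as the other 3 Hoxd regions together. Group means were most often lowest in WT under standard conditions, in 7 of 10 regions. They were highest in ifWT in 4, ifKO in 3, KO under standard conditions in 2 and WT after novelty in 1. How often each group was lowest or highest among all regions was not counted, so these counts are not shown to be particular to Hox regions. In pooled tissue, fewer cells carrying the mark and less of the mark per cell cannot be told apart.

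Under standard conditions no Hox region passed the test between KO and WT. Changes are log2 changes from edgeR's quasi-likelihood test fitted over all 12 libraries, and a region was called when its Benjamini-Hochberg adjusted p over all 35955 regions was under 0.05. Called were 0 of 10 Hox regions, against 13.4% of all regions, and 3 of 10 had an unadjusted p under 0.05, against 28% of all regions, while DESeq2 and limma-voom called 0 as well. The largest change was at Hoxa4, 0.70 ± 0.24 (SE, 95% interval 0.20 to 1.20) with an adjusted p of 0.053. Hoxd8 had 0.49 ± 0.23 (adjusted p = 0.16; 0.26 without KO replicate 2) and Hoxd1 0.38 ± 0.17 (adjusted p = 0.14). Libraries did not overlap in 5 of 10 Hox regions, 4 with KO higher and 1 with KO lower, against 58.0% of all regions. At the weak regions the intervals were wide, from -0.56 to 1.82 at Hoxa13, so any change within that range remained compatible with the counts there. Scaling by library totals, or fitting the 8 libraries of this cohort alone, called Hoxa4, with adjusted p-values of 0.044 and 0.043.

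After novelty 0 of 10 Hox regions passed the test between KO and WT, against 17.0% of all regions, none had an unadjusted p under 0.05, against 30.6%, and DESeq2 and limma-voom called 0. Hoxd1 had a change of 0.33 ± 0.17 (95% interval -0.0041 to 0.67, adjusted p = 0.17) and Hoxa4 0.26 ± 0.24 (95% interval -0.22 to 0.75, adjusted p = 0.48). Hoxa13 and Hoxa5 region 2 had KO values below WT, -0.96 ± 0.49 and -0.81 ± 0.50, with adjusted p-values of 0.18 and 0.28. Libraries did not overlap with KO higher in 2 of 10 Hox regions, Hoxd1 and Hoxa4, and with KO lower in 2, Hoxa13 and Hoxa5 region 2. The share of all regions was not counted. One call appeared without either of 2 libraries: Hoxa13 lower without KO replicate 2 and Hoxd1 higher without WT replicate 1.

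Averaged over both conditions, H3K4me3 rose in KO at 2 of 10 Hox regions, Hoxd1 and Hoxa4, and fell at none. Among all regions 32.1% were called, 18.1% higher and 13.9% lower, so the Hox share was not above the background. Scaling by library totals gave 7287 regions higher and 2565 lower, against 6519 and 5009 with TMM factors, and called the same number of Hox regions. Hoxd1 changed by 0.35 ± 0.12 (SE, 95% interval 0.11 to 0.60, adjusted p = 0.022) and Hoxa4 by 0.48 ± 0.17 (95% interval 0.14 to 0.83, adjusted p = 0.029). At both, all 4 KO libraries were above all 4 WT libraries of this cohort, which held for 17.1% of all regions. Hoxc6, the 1 region of its cluster, had 0.19 ± 0.15 (95% interval -0.12 to 0.49, adjusted p = 0.36). The Hoxc6 change was 0.042 when KO standard replicate 2 was left out and 0.30 when its partner, replicate 1, was, and strength offsets gave 0.029. Hoxa9, the strongest Hox region, had 0.08 ± 0.10 (95% interval -0.13 to 0.29, adjusted p = 0.61). Both calls were lost when offsets depended on region strength, which left changes of 0.22 at Hoxd1 and 0.31 at Hoxa4 (adjusted p = 0.17 for both). Both were also lost with DESeq2, at changes of 0.34 for Hoxd1 (adjusted p = 0.063) and 0.47 for Hoxa4 (adjusted p = 0.11), and without any 1 of WT standard replicate 2, KO novelty replicate 2 and WT novelty replicate 2. Hoxd1 alone was lost without KO standard replicate 1, and Hoxa4 alone without KO standard replicate 2 or WT standard replicate 1.

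In the C57BL/6J cohort 0 of 10 Hox regions passed the test between ifKO and ifWT, against 5.38% of all regions, none had an unadjusted p under 0.05, against 18.7%, and DESeq2 and limma-voom called 0. Hoxd1 had a change of -0.16 ± 0.17 (95% interval -0.51 to 0.19, adjusted p = 0.69) and Hoxa4 -0.0023 ± 0.26 (95% interval -0.53 to 0.53, adjusted p = 1). The difference between the KO change under standard conditions and the ifKO change was tested directly. It passed at 0 of 10 Hox regions, against 0.701% of all regions, with 1 unadjusted p under 0.05, against 8.46% of all regions, and no call by DESeq2 or limma-voom. That region was Hoxd1, where the KO change was 0.53 ± 0.24 above the ifKO change (95% interval 0.04 to 1.03, adjusted p = 0.53). The 2 mutants differ in cohort and strain background as well as in allele, which cannot be told apart.

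**Figure D4:**
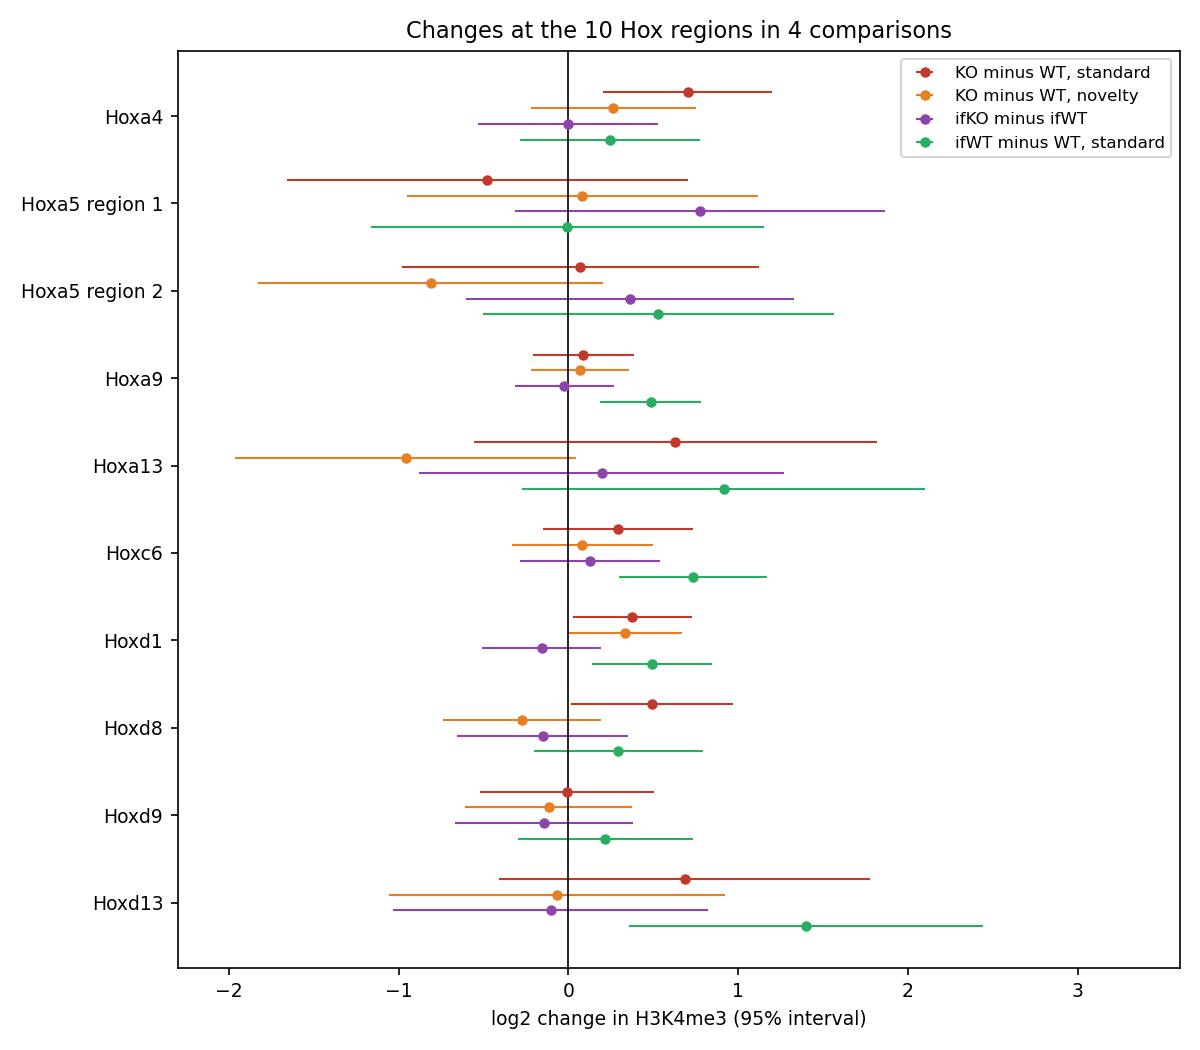
Log2 change in H3K4me3 (points) with its 95% interval (bars) at the 10 Hox regions for KO minus WT under standard conditions, KO minus WT after novelty, ifKO minus ifWT, and ifWT minus WT under standard conditions. Intervals at Hoxa5, Hoxa13 and Hoxd13, the weakest regions, are several times as wide as at Hoxa9, and KO minus WT and ifWT minus WT share the WT standard libraries.

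Novelty was compared with standard conditions within each genotype. In WT 0 of 10 Hox regions were called, against 0.00556% of all regions, and DESeq2 and limma-voom called 0. All 10 changes were positive, with a median of 0.22, but 1 had an unadjusted p under 0.05, against 4.67% of all regions. It was Hoxa13 at 1.42 ± 0.54 (adjusted p = 0.85), which had 20 and 31 counts after novelty against 7 and 9 counts under standard conditions. In KO 0 of 10 were called, against 0.00% of all regions, none with an unadjusted p under 0.05, against 3.94% of all regions, and none by DESeq2 or limma-voom, and 5 changes were positive. The mean of both genotypes gave 0 of 10, against 0.0473%, with no unadjusted p under 0.05, against 5.94%, and no call by the other tools. The interaction of genotype and novelty also gave 0 of 10, against 0.00%, and 0 with DESeq2 and limma-voom. Its 2 unadjusted p-values under 0.05, against 2.93% of all regions, were at Hoxd8, -0.77 ± 0.33, and Hoxa13, -1.59 ± 0.76, both with an adjusted p of 1. Leaving out 1 library gave -1.06 to -0.43 at Hoxd8, the ends being without WT novelty replicate 2 and without WT novelty replicate 1. At Hoxa13 leaving out the novelty KO libraries gave -0.88 for replicate 1 and -2.72 for replicate 2, and leaving out replicate 2 of the standard KO pair gave -0.84.

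The controls of the 2 cohorts differed at 2 Hox regions, both higher in ifWT than in WT under standard conditions. Of all regions 14.5% were called, 7.28% higher and 7.20% lower. Hoxc6 changed by 0.73 ± 0.21 (SE, 95% interval 0.30 to 1.17, adjusted p = 0.017) and Hoxa9 by 0.48 ± 0.15 (95% interval 0.19 to 0.78, adjusted p = 0.021). Hoxd13, at 1.40 ± 0.51, and Hoxd1, at 0.49 ± 0.17, had adjusted p-values of 0.063 and 0.053. Both ifWT libraries were above both WT libraries in 7 of 10 regions, against 27.1% of all regions. Without WT standard replicate 1 neither was called and the Hoxa9 change was 0.29, and without any 1 of the other 3 libraries only 1 was. The summed level of 4 astrocyte markers with a region was 155 to 166 CPM in ifKO and 158.8 to 165.7 CPM in ifWT, below the 183.8 to 216.2 CPM of the other cohort, and 2 of the 4 were lower in ifWT than in WT. Of 10 markers of hippocampal neurons 3 were lower in ifWT than in WT, and of 10 endothelial and mural markers 6 were. The part of these markers in the cohort difference was not tested. Scaling by library totals gave 1957 regions higher and 4141 lower, against 2616 and 2588 with TMM factors. Cohort and strain background go together here and cannot be told apart. These comparisons share the WT standard libraries with the KO comparison, and those had the lowest group mean in 7 of 10 regions. The share of all regions for which that holds was not counted.

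Markers of other parts of the nervous system moved with part of this pattern. The summed level of 8 regions of 10 listed hindbrain and spinal cord genes (among them Lmx1b, En1, En2 and Gbx2; Pax8 and Slc6a5 had no region) was 38.0 to 42.4 CPM in standard KO libraries, against 30.5 CPM in both standard WT libraries, 41.1 to 43.7 CPM in novelty KO libraries, against 35.7 to 41.0 CPM in novelty WT libraries, and 35.1 to 38.6 CPM in ifKO and 43.1 to 44.7 CPM in ifWT. Like the mean Hoxd sum, it was lowest in WT under standard conditions and lower in ifKO than in ifWT, although the Hoxd sums of single ifKO and ifWT libraries overlapped. Between ifKO and ifWT the 8 hindbrain regions moved both ways, with 1 called higher and 1 lower in ifKO, against 5.38% of all regions called. Their median change there was -0.30. In KO, averaged over both conditions, 3 of the 8 rose, against 18.1% of all regions, and 0 fell: Lmx1b by 1.04 ± 0.19 (adjusted p = 6.7e-05), Gbx2 by 0.53 ± 0.17 (adjusted p = 0.017) and En2 by 0.25 ± 0.07 (adjusted p = 0.006). With strength offsets 2 rose, against 5115 of all 35955 regions, and the median change was 0.13, against 0.29 in the main fit. DESeq2 also called 2 higher, against 4811 of all 35996 regions. After novelty alone 1 of the 8 rose in the main fit, and 0 with strength offsets or DESeq2. In ifWT against WT, 3 of 8 rose, against 7.28% of all regions, among them En1 by 1.11 ± 0.30 (adjusted p = 0.0094) and En2 by 0.52 ± 0.10 (adjusted p = 0.00038). The sum of 5 microglial markers was 24 to 28.0 CPM in standard KO libraries, against 21.7 CPM in both standard WT libraries, and 23.1 to 26.9 CPM in novelty KO libraries, against 17.7 to 21.5 CPM in novelty WT libraries. Their median change in KO under standard conditions was 0.13, and -0.048 with strength offsets. The sum of 4 oligodendrocyte lineage markers with a region was lower in KO, 122 to 131 CPM against 133.6 to 141.2 CPM in WT under standard conditions. Of 7 choroid plexus and ependyma markers, 3 had a region, with a sum of 46.8 to 47.5 CPM in standard KO libraries, against 41.9 to 42.7 CPM in standard WT libraries, 41.7 to 43.4 CPM in novelty KO libraries, against 37.7 to 39.3 CPM in novelty WT libraries, and 53.0 CPM in both ifKO libraries, against 39.7 to 44.7 CPM in ifWT. Of these 3, 2 were called higher in ifKO, against 1585 of all 35955 regions. The part of these markers in the Hox changes was not tested. The hindbrain regions are weak as well, with a median of 2.51 CPM, and 7 of the 10 genes also stand on the list of homeobox and developmental genes from outside the clusters.

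Genes that act with or on the Hox clusters were described from lists. The regions of most of these lists were strong, with medians of 58.4 CPM for cofactors, 46.2 CPM for upstream regulators and 43.9 CPM for flanking genes. The median of all regions tested was 6.46 CPM, and shares among regions of like strength were not counted. Of 9 Hox cofactors, homeodomain partners of the Pbx, Meis and Pknox families, 2 rose and 0 fell in KO averaged over both conditions, near the 18.1% higher and 13.9% lower of all regions. Meis1 had 64.8 ± 0.331 CPM in the KO libraries of both conditions, against 53.8 ± 4.42 CPM in the WT libraries (SD, n = 4 each), a change of 0.27 ± 0.06 (adjusted p = 0.00048). Meis2 had 38.4 ± 1.60 CPM in KO libraries, against 32.7 ± 1.11 CPM in WT libraries, a change of 0.24 ± 0.05 (adjusted p = 0.00075). Both also rose in each condition alone, whereas RLE factors called 1 of the 9 higher in each condition, and DESeq2 called 1 under standard conditions and 0 after novelty. Neither was called in ifKO, where 0 of 9 were, against 5.38% of all regions, and Meis2 was higher in ifWT than in WT under standard conditions, by 0.24 ± 0.08 (adjusted p = 0.031). With offsets that depend on region strength, 4 of the 9 rose in KO averaged over both conditions, against 5115 of all 35955 regions.

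Of 26 regions of genes for Polycomb repressive complexes, which silence Hox clusters, 1 rose and 18 fell in KO averaged over both conditions, against 18.1% higher and 13.9% lower among all regions, with a median of -0.13 against 0.01 over all regions. Scaling by library totals left 10 falling and offsets fitted to region strength 4. Of all 35955 regions, 2565 and 3476 fell with these settings, against 5009 in the main fit. The 26 regions had a median level of 75.1 CPM, against 6.46 CPM over all regions tested. The share that fell among regions of like strength was not counted, so the fall is not shown to be particular to Polycomb genes. Suz12, a core subunit of the complex that methylates lysine 27, fell by 0.20 ± 0.04 (adjusted p = 0.00029). Bmi1 and Rnf2, subunits of the complex that ubiquitinates histone H2A, fell by 0.22 ± 0.05 (adjusted p = 0.0012) and 0.16 ± 0.04 (adjusted p = 0.0033), and Phc3 fell by 0.17 ± 0.04 (adjusted p = 0.0012). The region that rose was that of Pcgf2, at 0.14 ± 0.05 (adjusted p = 0.018). In ifKO 0 of 26 were called, against 5.38% of all regions.

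Of 15 regions of upstream regulators, 2 rose, among them Rxrg, and 6 fell, against 18.1% and 13.9% of all regions. DESeq2 called 0 higher and 6 lower, against 4811 and 5032 of all 35996 regions. Kdm6a, a demethylase of lysine 27, fell by 0.22 ± 0.04 (adjusted p = 6e-05), and Kmt2a, a methyltransferase of Hox promoters, fell by 0.21 ± 0.05 (adjusted p = 0.0011). Gdf11, a signal that sets posterior Hox expression, fell in ifKO by 0.35 ± 0.09 (adjusted p = 0.017). It was the 1 call among the 15 in that comparison, against 5.38% of all regions. Of 9 regions of genes flanking the clusters, 0 rose and 3 fell in KO, against 18.1% and 13.9% of all regions: Lnpk by 0.16 ± 0.04, Skap2 by 0.16 ± 0.05 and Mtx2 by 0.11 ± 0.04, with adjusted p-values of 0.0017, 0.012 and 0.027. Scaling by library totals or offsets fitted to region strength left 1 of the 3, settings with which 2565 and 3476 of all 35955 regions fell. Of 49 regions of homeobox and developmental genes outside the clusters, 6 rose and 6 fell, neither share above the 18.1% and 13.9% of all regions, with a median level of 7.77 CPM, above that of the Hox regions.

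The libraries held 18181192 to 30435735 counts in regions, and r between the 2 libraries of a group was 0.986 to 0.991 on the log2 scale. At the end of Kdm5c itself (chrX:152232907-152234889) H3K4me3 was 60.3 to 60.8 CPM in standard KO libraries, against 66.6 to 72.2 CPM in standard WT libraries, and 53.5 to 59.6 CPM in ifKO and 58.1 to 61.5 CPM in ifWT. A promoter mark does not check a deletion in the gene. All 10 listed markers of hippocampal neurons, such as Neurod6 and Prox1, had a region. So did 8 of 10 hindbrain and spinal cord genes and 10 of 10 endothelial and mural markers, so having a region does not identify the tissue. The sums of the 10 hippocampal neuron markers were 771.5 to 810 CPM in ifKO and 628.1 to 686.8 CPM in ifWT. In the other cohort the sums lay between those, at 688.8 to 755.7 CPM. From ifWT to ifKO the median change of the 10 was -0.0052, with 1 called higher and 0 lower, against 5.38% of all regions called. The gap in the sums was thus not that of the median marker. Endothelial and mural markers had sums of 193.6 to 202.8 CPM in ifKO and 181.3 to 197.6 CPM in ifWT, below the 205.1 to 257.4 CPM of the other cohort, where KO and WT did not overlap under standard conditions. Ttr, Folr1, Otx2 and Kcnj13, defining genes of the choroid plexus, had no region. H3K4me1 and Kdm5C, measured in 1 library per genotype, cover a smaller set of regions, none of which lies within a Hox span, and the nearest is 60.4 kb from Hoxd.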

How the data were processed

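H3K4me3 was read as counts per region in 12 hippocampal libraries, in tables deposited with 36005 regions each, of which 9 were repeats. The deposited counts are whole numbers with no normalization, and the regions are given in mm10. The H3K4me1 and Kdm5C tables, deposited as a signal value per region in 1 library per genotype, held no Hox region and entered no comparison. Bowtie2 2.2.9, SAMtools 1.3.1, MACS2 2.1.0, featureCounts, DESeq2 1.10.0 and R 3.3 are named in the submitters' processing notes, with no settings. Regions were called before deposit, so a weak Hox promoter that missed the caller has no row at all.

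Counts were fitted in edgeR 4.0.16 (R 4.3.3) with TMM factors, filterByExpr, 1 mean per group over all 12 libraries and quasi-likelihood F tests, adjusted by Benjamini-Hochberg over all 35955 regions that passed. The filter removed 41 regions, none of them at a Hox gene. The fit gave 10 comparisons. Alternatives were DESeq2 1.42.0, limma-voom (limma 3.58.1), RLE factors, library totals, offsets fitted to region strength, no filter, the cohort alone, a replicate block, a 1 kb rule for Hox regions, and each library left out. The test was also run on counts simulated from its own fitted spread, with changes larger than those called at Hox regions. That run therefore does not check the Hox calls. Genes, coordinates and promoter sequences came from RefSeq (GRCm38.p6). List genes were represented by their strongest region within 2 kb of an end, and 2 list genes matched no annotation.

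The members, lists and tests were chosen with earlier results of these data known. Values per library are given for Hox regions called in any comparison, for the highest and lowest region of each cluster, and for the region with the smallest p in KO averaged over both conditions, and from each list up to 5 genes called in a KO or ifKO comparison were eligible to be named, with En1, Pcgf2 and Rxrg added after their values were seen. Libraries are separate pools of 2 mice, and p-values rest on the spread between such pools. With 2 libraries per group, edgeR combined the spread at each region with that of the other regions. The other regions entered with a weight of 25.88 prior degrees of freedom, so the p-value of a region does not rest on its own spread alone. Intervals and floors from counts cover counting error only.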

Additional observations from a re-analysis of the deposited data

How the results depend on the processing

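Directions were followed only for Hox changes with an unadjusted p under 0.05 and for Hoxc6 in the KO mean, and no setting turned one. Changes picked this way lie away from 0, and the signs of the other Hox changes were not followed. Cluster sums are levels and have no direction. The 0 calls in ifKO, in the novelty comparisons and in the interaction held under every alternative that kept both libraries of each group. So did those in the difference of the KO and ifKO changes. Between KO and WT under standard conditions, library totals gave 1 call and the cohort alone 1. After novelty, leaving out 1 library gave 0 to 1. For the mean of both conditions, offsets fitted to region strength gave 0 and DESeq2 0, and leaving out 1 library gave 0 to 2. Between ifWT and WT, leaving out 1 library gave 0 to 1, the 1 kb rule gave 1 because it drops Hoxa9, and RLE factors and strength offsets gave 3, adding Hoxd1. The 1 kb rule left the Hoxa sum at 4.06 CPM, against 15.3 CPM, for the same reason. Medians of the other gene lists did turn, 9 of 52 with strength offsets, 4 with library totals, 2 with RLE factors, 2 with DESeq2 and 1 with limma-voom. Over all regions the KO mean gave 6519 higher and 5009 lower, but 6196 and 6223 with RLE factors and 4811 and 5032 with DESeq2. Causes other than the dropped region were not tested.

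Replicate numbers are shared between groups, but deviations of same-numbered libraries correlated by only -0.0357 to 0.0571, so they do not pair the libraries; with the replicate block the calls were 2 for the KO mean, 2 for ifWT against WT and 0 elsewhere, as without it. Fitting the cohorts compared is the same as the main fit where both cohorts enter, and the planned H3K4me1 and Kdm5C values could not be given, since no region of those tables lies in a Hox span. Depth limits the 4 regions with 7 to 31 counts per library most.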

Other observations

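Over the 12 libraries, the gene-end regions outside the clusters whose level moved most like the summed level of the 10 Hox regions were those of Ankdd1a (Pearson r = 0.957), Cyb5b (r = 0.931), Hes1 (r = 0.928), Tusc1 (r = 0.922) and a region shared by 4930488L21Rik and Gnao1 (r = 0.918), the highest of 18658 searched. The Hox sum was 34.3 to 38.6 CPM in the 4 libraries of the C57BL/6J cohort and 26.0 to 32.9 CPM in the 8 of the mixed-background cohort. These r values are therefore a description that includes the difference between cohorts, and picking the highest of so many raises them.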
